A study of Bos taurus with 6 samples.

Results

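Genes of macrophages and of the MHC class II pathway were examined in the loin muscle (longissimus dorsi) of 18-month-old cattle, 3 of the Shandong black breed (B1, B2 and B3) and 3 of the Luxi breed (L1, L2 and L3). The set holds 10 genes of the 17282 listed, chosen by name: CD163, CSF1R, CD14 and CD68 (macrophage and monocyte surface or lysosomal proteins), PTPRC and TYROBP (genes of blood-derived immune cells in general), C1QA and C1QB (chains of complement C1q), and CD74 and BOLA-DRA (MHC class II). All 10 were found, and 9 reached the level needed for the test, a mean of at least 1 FPKM in at least 1 breed. CD68 did not.

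Macrophages are phagocytes that reside in the connective tissue between muscle fibres, clear damaged fibres and dying cells, and act on repair. They depend on the receptor CSF1R for survival, secrete most of the C1q of a tissue, and carry class II molecules, which present peptides from engulfed proteins to helper T cells. Class II alpha and beta chains are assembled on the invariant chain CD74, which blocks the peptide groove until the complex reaches the endosome; B cells, dendritic cells and some endothelial cells carry the same molecules.

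Each library was made from the total RNA of 1 animal, and the labels name no treatment. Shandong black cattle were bred from Japanese black, Luxi and Bohai black cattle, so the breeds share ancestry, and each breed came from its own supplier, so that breed and origin cannot be told apart. The sex of the animals is not given in the labels. Levels are in FPKM, which divides the fragments of a transcript by its length and by the depth of the library, so that genes can be compared. The libraries rested on 14.1 to 14.6 aligned gigabases in Shandong black cattle and on 17.5 to 17.99 in Luxi cattle. L1 stood apart from the other animals: ACTA1, the main actin of skeletal muscle, was at 12237 FPKM in L1 and between 32188 and 54910 FPKM in the other 5 animals.

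In these muscles, the transcripts of the set were mainly those of class II presentation. Over the 6 animals the mean level was 72.6 FPKM for CD74, 28.2 for BOLA-DRA, 11.9 for C1QB, 7.77 for C1QA, 3.11 for CD163, 3.08 for CSF1R, 1.06 for CD14, 0.979 for PTPRC, 0.848 for TYROBP and 0.437 for CD68. CD74 and BOLA-DRA together made up 71.6 to 84.4% of the summed FPKM of the 10 genes in each animal. CD74 was above BOLA-DRA, and BOLA-DRA above the other 8 genes, in every animal, while the order of the lower genes changed between animals: C1QA was above C1QB in B1 and below CD163 in L3.

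No gene of the set was called different between the breeds. A call needed an adjusted p below 0.05 in limma together with a change of at least 2-fold in FPKM + 1 in either direction, and was reached by 0 of the 9 tested genes and by 2.48% of all 9779 genes tested (1.53% higher and 0.951% lower in Luxi cattle). At an unadjusted limma p under 0.05 the count was 2 of 9, CSF1R and C1QA, both lower in Luxi cattle, against 21.8% of all genes and 6.77% lower. The same 2 genes were those whose animals did not overlap between the breeds, against 29.1% of all genes in either direction and 9.09% lower. The median log2 fold change (Luxi over Shandong black, on FPKM + 1) was -0.16 over the 9 genes and 0.13 over all genes tested. TYROBP and CD14 reached the level for the test only in Luxi cattle and PTPRC only in Shandong black cattle, so the median rests in part on genes whose direction is tied to their inclusion.

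**Figure D1:**
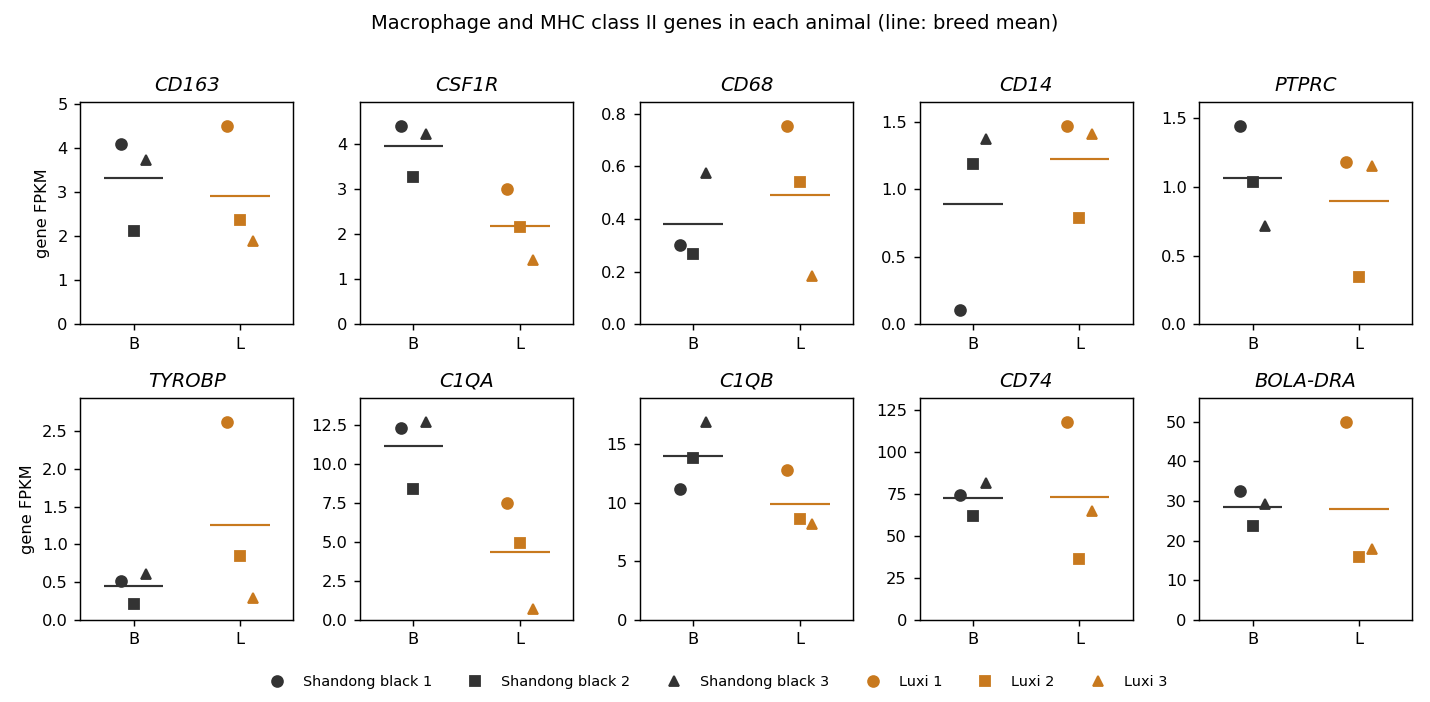
Gene FPKM (linear vertical axes from 0, a separate scale per gene) of the 10 genes in Shandong black (B, dark) and Luxi (L, orange) animals, with marker shapes for animals 1 to 3 and lines at the breed means. CSF1R and C1QA are the 2 genes with no overlap between the breeds, and the circle of L1 is the highest Luxi point in all 10 panels.

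CSF1R, the receptor for the growth factors CSF1 and IL34, was at 4.41, 3.27 and 4.24 FPKM in B1, B2 and B3 and at 2.996, 2.15 and 1.43 FPKM in L1, L2 and L3. Every Luxi animal was below every Shandong black animal. The means were 3.97 ± 0.616 (SD, n = 3) and 2.19 ± 0.784 FPKM (SD, n = 3), a ratio of 0.552. The log2 fold change was -0.66 (SE 0.22, 95% interval -1.18 to -0.14), with a limma p of 0.0196 and an adjusted p of 0.146. By permutation of the animals (exact, two-sided) p was 0.1, and no smaller p can be had with 3 against 3 animals. CSF1R lies at chr7:61380050-61411558 on the minus strand (ARS-UCD1.2). On the opposite strand of its span, 22 transcripts were assembled over the 6 libraries, 21 of them with a single exon, with a summed level of 0.501 to 1.68 FPKM per animal. StringTie was run with a strand setting, but the labels do not say whether the library kit keeps the strand, and without it reads of the gene and of an antisense transcript cannot be told apart.

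CD163, the scavenger receptor for haemoglobin bound to haptoglobin and a marker of resident tissue macrophages, did not separate the animals by breed. Its levels were 4.08, 2.12 and 3.72 FPKM in B1 to B3 and 4.50, 2.36 and 1.89 FPKM in L1 to L3. The highest and the lowest of the 6 values were both from Luxi cattle, and the breeds overlapped. The log2 fold change was -0.16 (SE 0.30, 95% interval -0.86 to 0.54, adjusted p = 0.784), an interval that lies within a 2-fold change on this scale. It also includes the CSF1R value of -0.66. CD163 lies at chr5:101785861-101822416. Within an animal, the ratio of CD163 to CSF1R was 0.648 to 0.926 in Shandong black and 1.10 to 1.501 in Luxi cattle, with no overlap (exact permutation p = 0.1). This and the other ratios below were chosen after the values had been seen.

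CD14, which binds bacterial lipopolysaccharide and passes it to TLR4, was low in this tissue. It was measured at 0.109, 1.19 and 1.37 FPKM in B1 to B3 and at 1.47, 0.789 and 1.41 FPKM in L1 to L3. B1 was far below the other 5 animals, which opened a range of 12.6 times between the highest and the lowest Shandong black value. Its log2 fold change was 0.30 (SE 0.32, 95% interval -0.45 to 1.04, adjusted p = 0.615), and without B1 it was -0.050. CD14 lies at chr7:51762889-51765896.

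CD68, a lysosomal membrane protein widely used to stain macrophages, had the lowest mean of the 10 genes and was the lowest in 3 of the 6 animals. It was at 0.303, 0.268 and 0.575 FPKM in B1 to B3 and at 0.754, 0.539 and 0.183 FPKM in L1 to L3. The ranges overlapped, and the difference in mean log2(FPKM + 1) was 0.10 (exact permutation p = 0.7). The transcript of the annotation carried 54.3% of its FPKM and assembled forms the rest, so that its values depend on how the reads were assembled. The gene lies at chr19:27312058-27314114.

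PTPRC (CD45), the tyrosine phosphatase on all nucleated blood-derived cells, was at 1.44, 1.04 and 0.713 FPKM in B1 to B3 and at 1.18, 0.345 and 1.15 FPKM in L1 to L3. The breeds overlapped, with L2 the lowest. The log2 fold change was -0.14 (SE 0.25, 95% interval -0.73 to 0.45, adjusted p = 0.773). No reference transcript of PTPRC was found in L2 or L3, whose values come from assembled transcripts on its exons. Across the long span of the gene (chr16:77540603-77670102, plus strand), further transcripts with less than 50% of their bases on its exons were assembled on the same strand and left out: 16 in B2 with 9.48 FPKM in sum, 2 in L1 with 0.890, 13 in L2 with 2.35, 20 in L3 with 5.15, and 0 in B1 and B3. Of these 51 transcripts, 49 had a single exon. In B2, L2 and L3 their sum was above the level of the gene itself, and the difference did not follow breed.

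TYROBP (DAP12), the signalling adaptor of TREM2 and other myeloid and NK cell receptors, was at 0.516, 0.205 and 0.604 FPKM in B1 to B3 and at 2.63, 0.846 and 0.291 FPKM in L1 to L3. L1 was above the other 5 animals, L2 was next, and L3 was within the Shandong black range. For TYROBP the log2 fold change was 0.52 (SE 0.37, 95% interval -0.35 to 1.39, adjusted p = 0.438), and it was 0.11 without L1. Coverage of TYROBP (chr18:46591329-46594252, minus strand) was uneven. The last exon was covered 10.3 to 19.5 times as deeply as the rest of the transcript in Shandong black cattle, and 5.92, 3.64 and 34.7 times as deeply in L1, L2 and L3. The last exon held 70.2 to 95.7% of the coverage of the transcript in the 6 animals.

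C1QA and C1QB encode the A and B chains of C1q, the recognition unit of the classical complement pathway, which is built from A, B and C chains in equal number. C1QA was at 12.3, 8.43 and 12.7 FPKM in B1 to B3 and at 7.49, 4.95 and 0.726 FPKM in L1 to L3. Every Luxi value was below the lowest Shandong black value, and L3 was far below the rest. The means were 11.2 ± 2.37 (SD, n = 3) and 4.39 ± 3.42 FPKM (SD, n = 3), a ratio of 0.393. The log2 fold change was -1.43 (SE 0.55, 95% interval -2.73 to -0.14, limma p = 0.0338, adjusted p = 0.189), and the exact permutation p was 0.1. Without L3 it was -0.75 (adjusted p = 0.246).

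C1QB, which lies near C1QA on chromosome 2 with C1QC between them, differed less. It was at 11.2, 13.8 and 16.9 FPKM in B1 to B3 and at 12.8, 8.63 and 8.17 FPKM in L1 to L3. L2 and L3 were below all Shandong black animals, while L1 lay between B1 and B2. For C1QB the log2 fold change was -0.47 (SE 0.25, 95% interval -1.05 to 0.11, adjusted p = 0.308; exact permutation p = 0.2). The genes are at chr2:130189865-130192754 (C1QA) and chr2:130166515-130173256 (C1QB), both on the minus strand, and all of their FPKM came from reference transcripts.

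The chains of C1q did not keep a fixed ratio of transcripts. C1QA over C1QB was 1.10, 0.610 and 0.752 in B1 to B3 and 0.585, 0.573 and 0.0888 in L1 to L3 (exact permutation p = 0.1). L1 and L2 were just under B2, and L3 alone was far below. In contrast, C1QC over C1QB was 0.118 to 0.156 in Shandong black and 0.131 to 0.159 in Luxi cattle, so the C chain followed the B chain in all 6 animals, L3 included.

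CD74, the invariant chain, was the highest gene of the set in every animal. It was at 74.2, 61.6 and 81.2 FPKM in B1 to B3 and at 118, 36.0 and 64.8 FPKM in L1 to L3. L1 was above and L2 below all other animals, so that the Luxi animals enclosed the Shandong black ones. The means were nearly equal, 72.3 ± 9.93 (SD, n = 3) and 72.9 ± 41.6 FPKM (SD, n = 3), but the SDs were not. For CD74 the log2 fold change was -0.14 (SE 0.43, 95% interval -1.14 to 0.86, adjusted p = 0.875), and without L2 it was 0.28.

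BOLA-DRA, the alpha chain of the class II molecule DR, had the same order of animals within each breed except that B1 and B3 changed places. It was at 32.6, 23.6 and 29.2 FPKM in B1 to B3 and at 50.1, 15.9 and 17.96 FPKM in L1 to L3. L1 was above and L2 and L3 below all Shandong black animals. The means were 28.4 ± 4.51 (SD, n = 3) and 27.97 ± 19.2 FPKM (SD, n = 3), with a log2 fold change of -0.20 (SE 0.43, 95% interval -1.21 to 0.80, adjusted p = 0.814). Leaving out L2 or L3 turned it to 0.091 or 0.0077. The genes lie at chr7:61747921-61755746 (CD74) and chr23:25838391-25843092 (BOLA-DRA), both on the minus strand.

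CD74, BOLA-DRA and the beta chain gene of DR kept narrow ratios to each other. CD74 over BOLA-DRA was 2.28 to 2.78 in Shandong black and 2.26 to 3.61 in Luxi cattle (exact permutation p = 0.9). BOLA-DRA over BOLA-DRB3 was 1.21 to 1.503 in Shandong black and 1.02 to 1.21 in Luxi cattle (exact permutation p = 0.2). Against the macrophage receptor CSF1R, the alpha chain was less steady. BOLA-DRA over CSF1R was 7.38, 7.23 and 6.88 in B1 to B3, a narrow range, and 16.7, 7.39 and 12.6 in L1 to L3 (exact permutation p = 0.1), with L2 touching the Shandong black range.

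In BOLA-DRA and CD74, the excess of L1 over the Shandong black animals did not extend over the whole transcript. In BOLA-DRA, the level of exon 3 of 5, expressed as coverage per base and aligned gigabase, was 43.3, 43.1 and 44.3 in B1 to B3 and 117, 33.8 and 38.8 in L1 to L3. The level over exons 1, 2, 4 and 5 was 29.5, 17.7 and 24.8 in B1 to B3 and 30.9, 10.8 and 11.3 in L1 to L3. Outside exon 3, therefore, L1 was at the level of B1, and L2 and L3 were below every Shandong black animal. The ratio of exon 3 to the other exons was 1.47, 2.44 and 1.79 in B1 to B3 and 3.79, 3.13 and 3.42 in L1 to L3, higher in all 3 Luxi animals (exact permutation p = 0.1). Exon 3, at chr23:25839953-25840234, is 282 bases long.

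Coverage of CD74 was uneven as well. It was low in exon 1 and highest in exon 8 in all animals but L2. In those animals the last exon, exon 9, was below exon 8, at 69.8 against 154 in B1 and 144 against 266 in L1. Exons 1 to 5 of the long form were at 59.1, 46.7 and 67.0 in B1 to B3 and at 65.4, 22.2 and 36.8 in L1 to L3, which places L1 within the Shandong black range. Over exons 6, 8 and 9 the level was 82.3, 69.7 and 86.5 in B1 to B3 and 158, 48.7 and 64.2 in L1 to L3. The ratio of the latter to the former was 1.29 to 1.49 in Shandong black and 1.74 to 2.41 in Luxi cattle (exact permutation p = 0.1). Of the 9 genes other than PTPRC, whose exon levels were compared, the last exon was deeper relative to the others in all Luxi than in all Shandong black animals in 2, CD74 and CSF1R, and in 0 the other way. For CD74 the other exons include exon 7, which was mostly skipped. Exon levels were compared only for genes of the set, so the share over all genes is not known and the count cannot be called particular to the set. The exons compared were chosen after their values had been seen, and the part of coverage shape in the breed comparison was not tested.

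**Figure D2:**
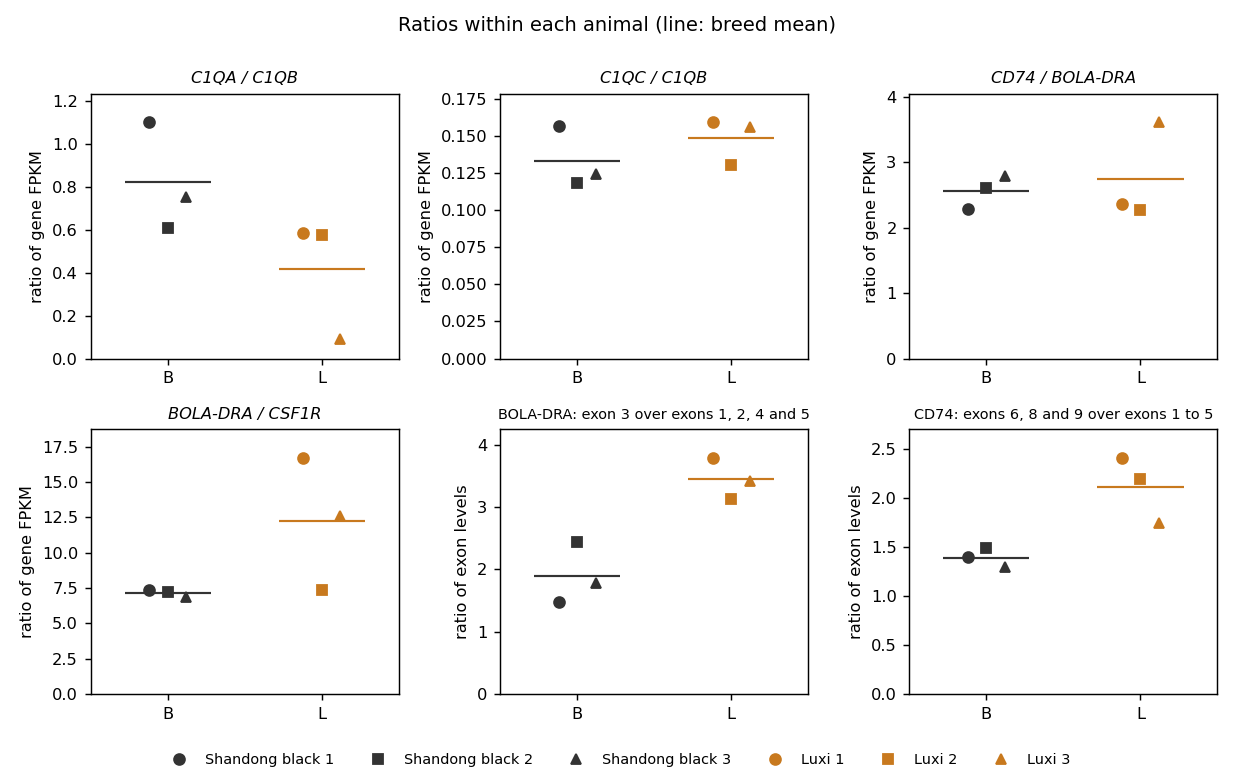
Ratios within each animal (linear vertical axes from 0) of gene FPKM in the first 4 panels and of exon levels in the last 2, for Shandong black (B, dark) and Luxi (L, orange) cattle, with lines at the breed means. C1QA over C1QB is lowest in L3 at 0.0888, and the ratio of BOLA-DRA exon 3 to its other exons is above 3 in every Luxi animal and at most 2.44 in Shandong black cattle.

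Exon 7 of CD74, 192 bases that encode a thyroglobulin-like domain of the long form, was mostly skipped. Its level, as a percentage of the mean of exons 6 and 8, was 0.727, 1.46 and 11.5% in B1 to B3 and 0.613, 9.38 and 5.38% in L1 to L3. The share was low in every animal and did not follow breed (exact permutation p = 1). The transcript without it, with 8 exons, was at 71.4, 61.0 and 70.0 FPKM in B1 to B3 and at 111, 27.5 and 31.8 in L1 to L3, and in L3 an assembled form with 7 exons held a further 26.5 FPKM.

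Within each breed the 10 genes tended to rank the animals alike. L1 was the highest Luxi animal for 10 of 10 genes, against 32.7% of all genes tested, and B2 was the lowest Shandong black animal for 7 of 10, against 44.9%. After median-of-ratios size factors, which set the libraries to a common scale, L1 was still the highest for 10 of 10, against 39.9%, and B2 the lowest for 7 of 10, against 39.6%. The summed FPKM of the 10 genes was 141, 116 and 151 in B1 to B3 and 202, 72.5 and 98.01 in L1 to L3. Without CD74 and BOLA-DRA it was 34.4, 30.3 and 40.9 in B1 to B3 and 33.8, 20.6 and 15.3 in L1 to L3. On the second sum L1 fell among the Shandong black animals, and L2 and L3 stayed below them. The muscle actin ACTA1 ran the other way in Luxi cattle, at 12237 FPKM in L1 and at 54910 and 47110 in L2 and L3. Of the other listed muscle markers, CKM, MYH1, MYH2, MYH7 and DES were also lowest in L1 among Luxi cattle. MB and TTN were not: at 7894 and 625 FPKM, L1 lay between L2 and L3. In whole muscle, more macrophages and more RNA per macrophage cannot be told apart, and the part of the makeup of the L1 library in these values was not tested.

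**Figure D3:**
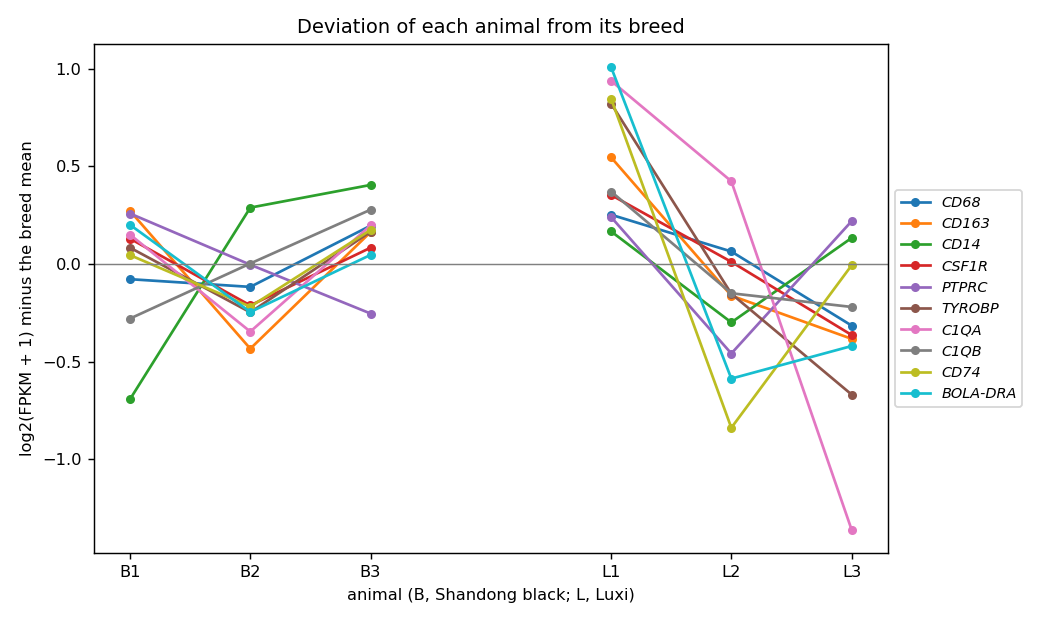
Deviation of log2(FPKM + 1) of each gene (coloured lines) from the mean of its breed, in the 3 Shandong black (B) and 3 Luxi (L) animals; lines join animals only to follow a gene. All 10 genes lie above 0 in L1, and B2 is the lowest of its breed for 7 of 10.

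The spread between animals was larger in Luxi cattle. The SD of log2(FPKM + 1) had a median over the 9 tested genes of 0.256 in Shandong black and 0.486 in Luxi cattle, beside 0.187 and 0.312 over all genes. The widest Luxi ranges were those of C1QA (highest over lowest 10.3), TYROBP (9.03) and CD68 (4.11), and the narrowest was that of C1QB (1.57). The median log2 fold change of the 9 genes was -0.56 without L1 and 0.085 without L2, so that its direction depended on which Luxi animals were included. Without L1, the log2 fold change was -0.84 for CSF1R (adjusted p = 0.051), -1.90 for C1QA (adjusted p = 0.072), -0.66 for C1QB (adjusted p = 0.096) and -0.71 for BOLA-DRA (adjusted p = 0.076), and no gene was called. With size factors and without L1, an alternative added after the data had been seen, CSF1R (-0.97, adjusted p = 0.041) and BOLA-DRA (-0.90, adjusted p = 0.046) had adjusted p-values below 0.05 at less than the fold change required.

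**Figure D4:**
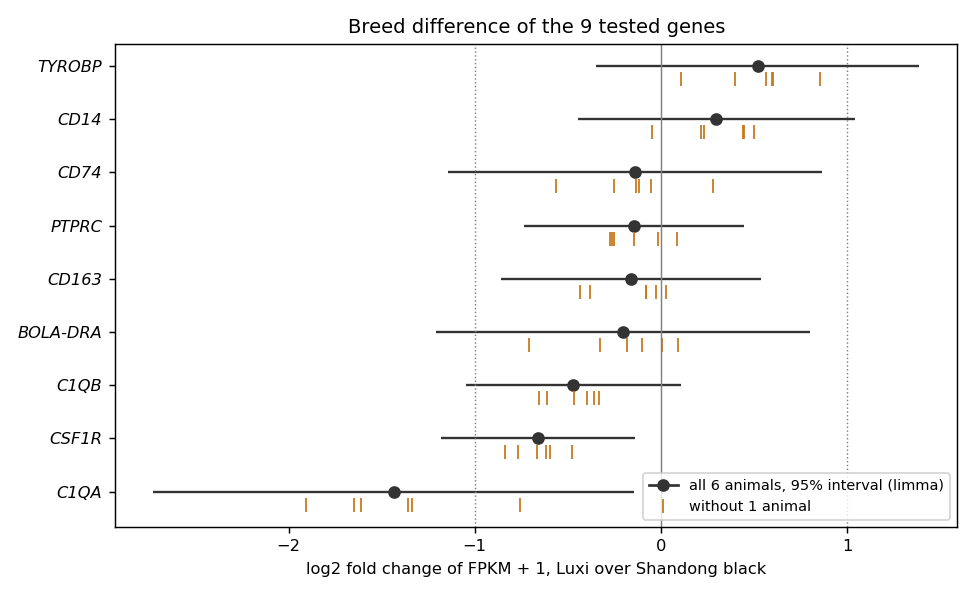
Log2 fold change of FPKM + 1, Luxi over Shandong black, for the 9 tested genes (dark points with 95% limma intervals), and the same value with each animal left out in turn (orange ticks); dotted lines mark log2 values of -1 and 1. The intervals of C1QA and CSF1R lie below 0, and the other 7 include 0.

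Over the 6 animals, after the mean of each breed was subtracted, the correlation between pairs of the 10 genes had a median r of 0.62 and ran from -0.34 to 0.96, and 38 of 45 were positive. The closest pair was CSF1R and TYROBP, and the most opposed was CD68 and PTPRC. Against the mean of the 10 genes, listed macrophage and class II genes with high r were LAPTM5 (0.96, a lysosomal protein of blood-derived cells), AIF1 (0.95, the microglia and macrophage protein IBA1), C1QC (0.95), BOLA-DRB3 (0.93) and LCP1 (0.91, a leukocyte actin-bundling protein). Some others of the same lists followed the set little. The macrophage genes MRC1, MERTK, CYBB and LYVE1 had an r of 0.13, 0.095, 0.38 and 0.42, and the class II regulator gene RFXAP had 0.12. Other class II regulator genes were higher, with 0.86 for RFX5, 0.85 for RFXANK and 0.61 for CIITA. BOLA-DMB, CTSS and STAB1 had 0.89, 0.84 and 0.83. VCAM1, an adhesion molecule also carried by endothelium, had -0.74 and the endosomal protease LGMN -0.65. Among all other tested genes, the 10 with the most similar pattern were BNIP2, BTBD7, RAMP2, CHKB, CDK19, SRI, MYL6, GLT8D2, ST8SIA4 and SPRED2, with r of 0.991 to 0.997. An r over 0.9 was reached by 450 of 9770 genes (4.61%). These are descriptions over 6 points that share libraries, and L1 was the highest Luxi animal in each of the 10 genes named.

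Other genes of macrophages and monocytes were not called with all 6 animals. Of 30 listed, 28 were in the files and 14 were tested, with a median log2 fold change of -0.23. Of these, 0 were called and 1 had an unadjusted limma p under 0.05, against 21.8% of all genes tested. LAPTM5 was at 4.73 to 6.16 FPKM in Shandong black cattle and at 6.80, 2.46 and 1.77 in L1 to L3. Without L1, LAPTM5 (log2 fold change -1.04, adjusted p = 0.0290) and LCP1 (-1.28, adjusted p = 0.0248) were called lower in Luxi cattle. In that fit 127 of all 9779 genes tested were called lower, and the median of the list was -0.42. The cysteine protease CTSS was at 2.66 to 4.32 in Shandong black cattle and at 4.79, 1.54 and 2.18 in L1 to L3. LYVE1, a hyaluronan receptor of resident macrophages and lymphatic vessels, was steadier, at 3.06 to 3.40 and 2.60 to 4.24 FPKM. B2 was the lowest Shandong black animal for 13 of the 14 genes, against 44.9% of all genes tested. L1 was the highest Luxi animal for 10, against 32.7%.

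Of 22 further class II pathway genes, 13 were in the files and 9 were tested, with 0 called and a median log2 fold change of 0.10. BOLA-DRB3, the expressed DR beta chain gene, was at 27.0, 15.7 and 21.96 FPKM in B1 to B3 and at 41.4, 15.6 and 16.3 in L1 to L3, a log2 fold change of 0.06 (adjusted p = 0.946). LGMN was higher in every Luxi animal (1 of the 9, against 20% of all genes tested). It was at 4.69, 6.97 and 6.81 FPKM in B1 to B3 and 7.21, 13.3 and 9.86 in L1 to L3, without passing the test (log2 fold change 0.62, adjusted p = 0.224). CIITA, the master transcription activator of class II genes, was outside the rule for naming and is given for its role: it was at 0.96 to 1.11 FPKM in Shandong black cattle and at 2.78, 2.72 and 0.52 in L1 to L3, overlapping, with only 5.69% of its FPKM on reference transcripts. A DQ beta chain gene listed as BLA-DQB was found after the values had been seen. It was at 4.48, 1.84 and 3.19 FPKM in B1 to B3 and at 13.6, 5.79 and 5.198 in L1 to L3. It had no overlap, as had 20% of all genes tested in this direction (log2 fold change 1.08, SE 0.38, adjusted p = 0.162, not called). Class II beta chain genes differ between animals in sequence and have near copies, so their FPKM depends on how well an allele aligns to the reference and is uncertain.

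Class I genes, which also have near copies, varied widely from animal to animal. Of the 11 listed, 9 were tested, with 0 called and a median log2 fold change of -0.12. The class I gene listed as BOLA was at 52.2, 21.3 and 39.9 FPKM in B1 to B3 and at 6.68, 58.1 and 4.82 in L1 to L3, and BOLA-NC1, named after its values were seen, was at 30.3 in L1 and at most 0.44 in the other animals. Reference transcripts carried only 13.4% of the FPKM of BOLA and 8.19% of that of BOLA-NC1, and assembled transcripts placed by overlap the rest. Without L1, the immunoproteasome gene PSMB8 was called lower in Luxi cattle (log2 fold change -1.02, adjusted p = 0.0242), as were 127 of all 9779 genes tested. B2M, the light chain shared by class I molecules, was at 34.8, 52.0 and 9.21 FPKM in B1 to B3 and at 58.4, 37.9 and 44.6 in L1 to L3, with overlap.

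Of the ligands, co-receptors and signalling partners of the set, 8 of 16 were tested, with 0 called and a median log2 fold change of -0.15. CD44, the co-receptor of CD74 for the cytokine MIF, was at 12.4 to 21.0 FPKM in Shandong black and 7.98 to 15.7 in Luxi cattle (log2 fold change -0.67, adjusted p = 0.261). MIF itself was at 12.3 to 16.8 and 9.27 to 19.9 FPKM (log2 fold change -0.03). CD47, which inhibits engulfment through SIRPA, was at 8.78 to 12.7 and 8.31 to 20.6 FPKM (log2 fold change 0.20). Of 14 interferon and inflammatory genes 6 were tested, with 0 called and a median log2 fold change of 0.01. Among them the transcription factor gene IRF1 was at 1.26 to 1.42 FPKM in Shandong black and 1.66 to 3.34 FPKM in Luxi cattle. It was higher in all Luxi animals, as were 20% of all genes tested, without passing the test (adjusted p = 0.165). Without B2, 1 gene of this list, CXCL10, was called lower in Luxi cattle (log2 fold change -1.32, adjusted p = 0.0387). In that fit 105 of all 9779 genes tested were called lower.

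Complement genes beside C1q were on the lower side in Luxi cattle. All 9 that were tested, of 11 listed, had a negative log2 fold change, against 37.4% of all genes, with a median of -0.54, but C2 and CFB reached the level for the test only in Shandong black cattle. With size factors and without L1, C1S was called lower (log2 fold change -1.06, adjusted p = 0.0296), as were 181 of all 9779 genes tested. With all 6 animals, 0 of 9 passed limma at the adjusted threshold, and the smallest adjusted p was 0.12. An unadjusted limma p under 0.05 was reached by 3 of 9 (C1S, CFB and CLU), against 6.77% of all genes lower in Luxi cattle. In 4 of the 9 (C1S, C2, CFB and CLU) all Luxi animals were below all Shandong black animals, against 9.09% of all genes. The low side of C2 and CFB was tied to their inclusion, so both counts rest in part on the filter. CLU (clusterin), a fluid-phase inhibitor of the terminal complex that many cell types secrete, was at 90.7, 54.0 and 76.6 FPKM in B1 to B3 and at 40.9, 37.9 and 52.0 in L1 to L3 (log2 fold change -0.73, adjusted p = 0.194). The protease C1R was at 7.91 to 14.0 and 5.52 to 9.49 FPKM (log2 fold change -0.54, adjusted p = 0.301). The C1 inhibitor SERPING1 was at 13.8 to 21.5 and 9.16 to 26.7 FPKM (log2 fold change -0.05).

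**Figure D5:**
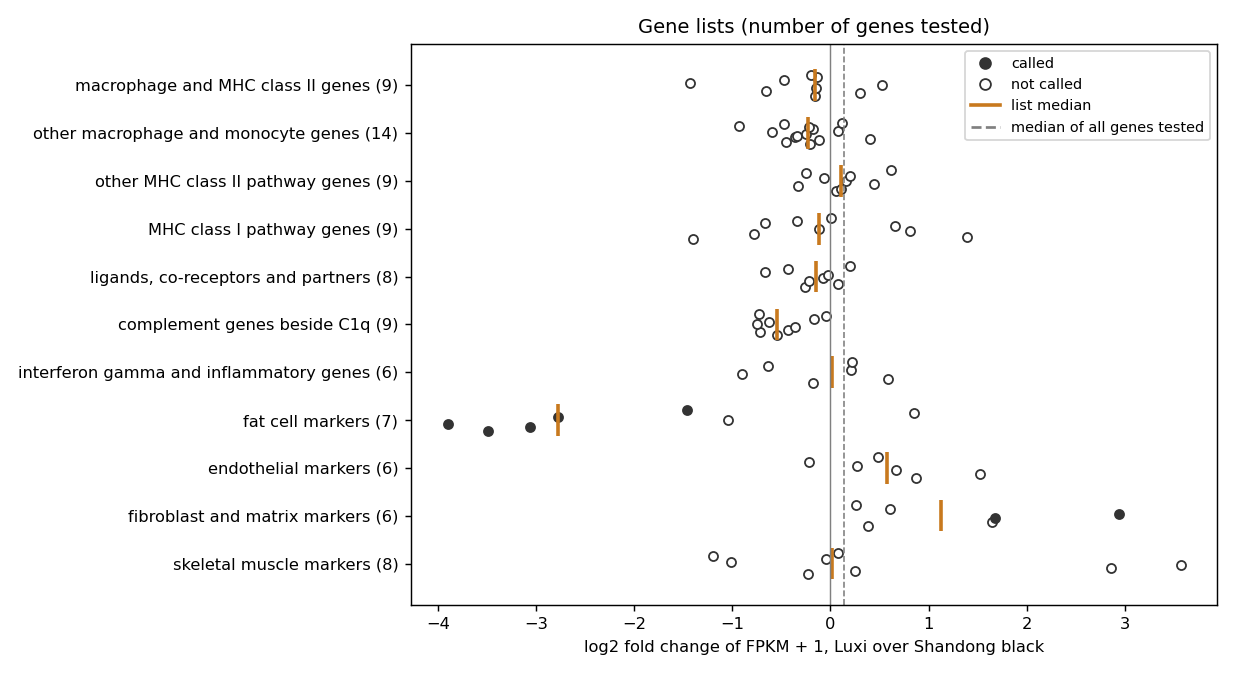
Log2 fold change of FPKM + 1, Luxi over Shandong black, of the tested genes of each list with at least 5 tested (filled, called; open, not called), with the list median (orange) and the median of all genes tested (dashed). Called genes appear only in the lists of fat cell markers, 5 lower, and of fibroblast and matrix markers, 2 higher, among the lists shown.

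Among markers of other cells, those of fat and of matrix included called genes. Of 8 fat cell markers 7 were tested and 5 were called lower in Luxi cattle (ADIPOQ, PLIN1, FABP4, CIDEC and LIPE). These 5 summed to 115 to 179 FPKM in Shandong black and 3.09 to 19.2 in Luxi cattle. LPL, a lipase that muscle fibres also express, was higher in every Luxi animal, as were 20% of all genes tested, without being called. Its levels were 16.7 to 17.5 FPKM in Shandong black and 23.3 to 37.2 FPKM in Luxi cattle (log2 fold change 0.85, adjusted p = 0.107). With LPL included, the whole list summed to 134 to 198 FPKM in Shandong black and 38.4 to 55.7 in Luxi cattle. Of 6 fibroblast and matrix markers, COL1A2 and COL3A1 were called higher, and the sum was 113 to 169 FPKM in Shandong black and 384 to 511 in Luxi cattle. The 6 tested endothelial markers had 0 called and a median log2 fold change of 0.58, with a sum of 22.9 to 28.7 FPKM and 82.9, 29.6 and 41.3 FPKM in L1 to L3. Fat tissue holds macrophages and endothelial cells can carry class II molecules, and the part of these tissues in the values of the set was not tested.

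Lymphocyte genes were close to the limit of measurement. Of 12 T and NK cell markers 8 were in the files and 0 reached the level for the test. Their summed level was 3.72 to 4.13 FPKM in Shandong black cattle and 2.06, 1.37 and 0.584 in L1 to L3, and CD3E and CD3G were listed at 0 in L3. Of 7 B and plasma cell markers 2 were in the files, JCHAIN at 0.123 to 0.377 FPKM and CD79A at 0 in all animals but L1. Neutrophil markers summed to 0.416 to 0.492 FPKM in Shandong black and 0.848 to 4.12 in Luxi cattle, with S100A8 at 0 in B1, B2, L1 and L2. Dendritic cell markers summed to 4.30 to 6.92 and 5.42 to 10.4 FPKM, mast cell markers to 1.62 to 2.30 and 1.25 to 2.13 FPKM, and red blood cell markers to 0.651 to 0.805 and 0.583 to 1.65 FPKM. The 8 skeletal muscle markers had 0 called and a median log2 fold change of 0.02. Markers of T, B and red blood cells thus summed to a few FPKM at most in every animal. Genes of the set itself were also low, with means of 0.437 FPKM for CD68, 0.979 for PTPRC and 1.06 for CD14. The part of any of these cells in the level of CD74, at 36.0 to 118 FPKM, was not tested.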

How the data were processed

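Loin muscle RNA of 6 animals was sequenced, 1 library each, grouped by the breed in the labels. Per the file headers, the authors ran StringTie 1.3.3b on each library with an NCBI annotation; their methods give HISAT alignment to ARS-UCD1.2. The deposited files hold no plain value column: coverage, FPKM and TPM of each transcript and the coverage of each exon stand in an attribute field (other unit), and the deposited FPKM is coverage scaled to the library. Missing transcripts were counted as 0. Gene FPKM was the sum over reference transcripts and assembled transcripts with 50% or more of their bases on the exons (bedtools 2.31.1). Transcripts in no gene held 21.6 to 29.8% of the FPKM. The authors' Cuffdiff needs alignments and was not run. Genes whose mean FPKM reached 1 in either breed were tested with limma 3.58.1 (R 4.3.3; lmFit, eBayes with trend) on log2(FPKM + 1), a scale that understates changes of low genes, with Benjamini-Hochberg adjustment over 9779 genes, and single genes by exact two-sided permutation tests. The code was tested on simulated data. Without read counts, no counting error is given, and the number of animals limits the precision. Members and gene lists were chosen with earlier results of these data known. Of each list, the genes called are named, or else up to 3 with the highest mean FPKM. A further gene that this rule names is not reported here. LPL and the listed genes called only under an alternative were named after their values were seen. Of 186 listed names, 152 matched the files. The alternatives were another pseudocount, other filters, TPM, size factors, quantile normalization, no trend, a replicate block, reference transcripts only, another fold threshold and leaving out each animal.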

Additional observations from a re-analysis of the deposited data

How the results depend on the processing

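No gene of the set was called under any of the alternatives run. Over all genes, 243 were called (150 higher and 93 lower in Luxi cattle); the count was 65 (42 and 23) with no filter, 138 (83 and 55) at a mean FPKM of at least 5, 156 (92 higher) with reference transcripts only, and 64 (27 and 37) at a log2 fold change of at least 2. With size factors 146 and with quantile normalization 162 were called lower, and 262 and 287 in all. Leaving out each animal gave 3 (without B3) to 590 (without L1) genes called, 2 to 463 higher and 1 to 127 lower; the count was 10 without B1, 46 without L2 and 88 without L3. Size factors together with leaving out L1, added after the data had been seen, gave 459 (278 and 181). The median log2 fold change of the 9 genes ranged from -0.56 (without L1) to 0.085 (without L2) with 1 animal left out, and was -0.76 with size factors and without L1. Of 139 values of single genes under alternatives, 6 changed sign: CD163 to 0.030 and BOLA-DRA to 0.0077 without L3, CD14 to -0.050 without B1, and PTPRC to 0.085, CD74 to 0.28 and BOLA-DRA to 0.091 without L2. With 1 animal left out, the values ran from -0.43 to 0.030 for CD163, -0.050 to 0.50 for CD14, -0.27 to 0.085 for PTPRC, -0.56 to 0.28 for CD74 and -0.71 to 0.091 for BOLA-DRA. The cause of these changes was not tested. With the replicate number as a block, 134 genes were called (79 and 55) and none of the set. Same-numbered animals are different animals, and the labels tie them by a number only. Their deviations correlated at 0.0858, 0.0883 and 0.0785, which is weak, but each animal correlated best with its own number. Whether the number stands for something shared, such as a batch, is not given in the labels and was not tested. With 3 animals per breed, differences smaller than the intervals given could not be seen.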
